A study of Mus musculus with 2 samples.

Results

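The 40 genes described here encode collagen chains and were measured in the pituitary of mice with a disrupted Brdt gene. They were chosen by name, as the rows of the deposited table whose symbol has the form Col, a type number, the letter a and a chain number, with 1 such row left out. They make up 40 of 31784 gene rows. Each of 2 two-colour Agilent arrays compared RNA of a wild-type pool with RNA of a Brdt-/- pool, and a pool combined 3 mice, 8 weeks old and on the C57BL/6 background. The knockout mice were homozygous for the tm1a knockout-first allele, in which a lacZ trap and a floxed neo cassette with its own promoter sit in the fourth intron. Wild-type mice are labelled as male, and the knockout mice carry no sex label. The labels number 2 pools per genotype as biological replicates. The p-values rest on the spread between 2 arrays, which limma moderated with the spread of all gene rows. The arrays also exchange the dyes, so this spread holds any dye effect together with the variation between pools.

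Collagens are secreted proteins in which 3 chains, each with glycine at regular positions of its helical part, wind into a triple helix. Fibrillar collagens assemble into the fibres that give tissue its tensile strength, type IV forms the network of basement membranes, and fibril-associated collagens coat the fibres. In the pituitary, basement membranes surround the endocrine cell cords and the capillaries, and fibrillar collagens are products of stromal cells such as pericytes and of the capsule.

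Each value is the log2 of the knockout signal over the wild-type signal, in the order array 1, array 2. A value of 1 is a difference of 2-fold. That direction is likely rather than settled. The labels put the knockout pool in Cy5 on array 1 and in Cy3 on array 2, and the deposited columns shared their sign at all 10 E1A spike-in rows. Both columns were therefore read as red over green (Cy5 over Cy3), and the sign of array 2 was turned. This reading assumes that each dye received its own spike-in mixture, which the labels do not state. The spike-in rows show a shared dye order and not which dye stands on top. Were both columns green over red, every sign would invert, with 4 collagen genes higher and 14 lower on both arrays. Across all gene rows the turned arrays had a Pearson r of -0.26 (genes are not independent replicates), so the columns correlated positively as deposited. Brdt itself was at -0.30 and -0.43, and its probe's place relative to the cassette is not stated in the labels. The table holds ratios and no levels, so the tissue could not be checked against the abundance of its marker genes. In RNA of whole tissue, a change in the number of collagen-making cells and a change in RNA per cell cannot be told apart.

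None of the 40 collagen genes passed limma's adjusted threshold of 0.05 (adjusted p = 0.999995 for each), and over all gene rows 0.0% passed. At limma's unadjusted p under 0.05 there was 1 collagen gene, Col13a1, while 2.21% of all gene rows passed. On both arrays 14 of the 40 collagen genes were higher in the knockout pools, a share of 35.0%, against 21.6% of all gene rows. Lower on both arrays were 4 of the 40, a share of 10.0%, against 19.5% of all gene rows. The other 22 had opposite signs on the arrays, as did 58.9% of all gene rows. Among protein-coding rows alone, 23.4% were higher and 18.4% lower on both arrays.

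The collagen genes lay differently on the arrays. The median collagen gene stood at 0.00 on array 1, where 20 of 40 were above 0, and at 0.14 on array 2, where 30 of 40 were. Over all gene rows the medians were -0.03 and 0.03, and 44.9% and 57.1% of rows were above 0. The median of the collagen genes' mean ratios was 0.03, against 0.00 for all gene rows. The median SD between the arrays was 0.17 for the collagen genes and 0.20 for all gene rows. With array 2 left as deposited, 6 collagen genes were higher on both arrays and 16 lower, against 23.3% and 35.4% of all gene rows, and 21 of the 40 mean ratios changed sign while 19 kept theirs.

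**Figure D1:**
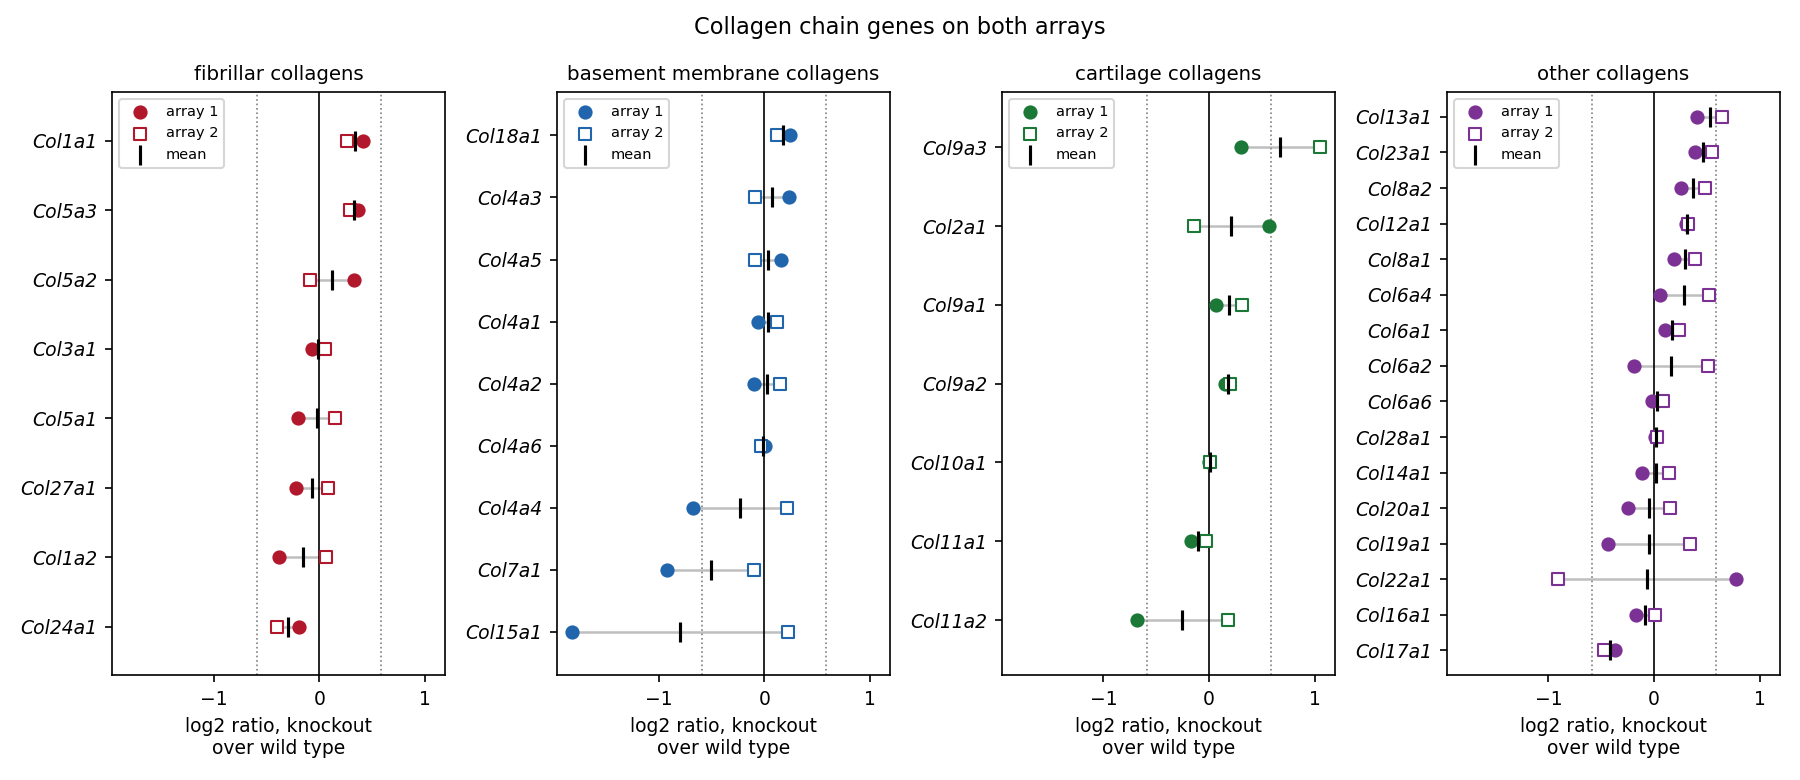
Log2 ratios of knockout over wild type for the 40 collagen chain genes in 4 classes, with array 1 as filled circles, array 2 as open squares, the mean as a black bar and 1.5-fold as dotted lines. Most genes lie within 1.5-fold on both arrays, and Col15a1 and Col22a1 show the widest gaps between the arrays.

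The 8 fibrillar collagens other than those of types II and XI, which are grouped with cartilage, showed no common direction. Col1a1 encodes the α1 chain of type I collagen, the main fibre of bone, tendon and skin, and was at 0.42 and 0.26, a mean of 0.34 ± 0.11 (SD, n = 2). Col1a2, whose α2 chain joins 2 α1 chains in the type I molecule, was at -0.38 and 0.06. The chains of 1 molecule thus lay on opposite sides of 0 on array 1 and on the same side on array 2. Type V collagen sits inside type I fibres and limits their width. Its chain genes were Col5a3 at 0.37 and 0.29, Col5a2 at 0.33 and -0.09, and Col5a1 at -0.20 and 0.15. Only Col5a3 among them kept its sign.

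Col3a1, the collagen of reticular fibres and vessel walls, lay at -0.07 and 0.05. Col24a1, a minor fibrillar collagen, was lower on both arrays, at -0.19 and -0.40. Col27a1, a fibrillar collagen best known from cartilage, was at -0.22 and 0.08. The class median was -0.13 on array 1 and 0.07 on array 2, with 2 of 8 members higher on both arrays and 1 lower. These shares were 25.0% and 12.5%, against 21.6% and 19.5% of all gene rows. No member of this class passed 1.5-fold on either array.

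Each of the 6 genes of type IV collagen changed sign between the arrays. Col4a1 and Col4a2, which build the α1 and α2 chains found in nearly every basement membrane, were at -0.06 and 0.12 and at -0.10 and 0.15. These genes are transcribed away from each other, with annotated starts 21 bases apart in RefSeq's GRCm38.p6, and their mean ratios were 0.03 and 0.03. Col4a3 and Col4a4, a second divergent pair whose chains are known from the glomerulus of the kidney, did not lie together. Col4a3 was at 0.23 and -0.09, and Col4a4 at -0.68 and 0.21. The third pair, on the X chromosome, was Col4a5 at 0.16 and -0.09 and Col4a6 at 0.01 and -0.03. For Col4a1 limma's 95% interval of the mean ran from -0.45 to 0.51, so a difference of that size in either direction lies within the error.

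Of the other collagens of the basement membrane zone, Col15a1 and Col7a1 were further from 0 on array 1 than any type IV gene. Col15a1, a multiplexin found beneath endothelium and muscle, was at -1.82 on array 1, which is 3.52-fold lower, and at 0.23 on array 2. Its mean of -0.79 ± 1.45 was the lowest of the 40 (-1.02 with array 2 as deposited), and it rested on array 1. Col7a1, which forms the anchoring fibrils of skin, was at -0.92 and -0.09. Col18a1, the precursor of endostatin, was higher on both arrays, at 0.24 and 0.12. Of the 9 basement membrane collagens, 1 was higher and 1 lower on both arrays (11.1% each, against 21.6% and 19.5% of all gene rows). The class medians were -0.06 and 0.12.

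Of the 7 cartilage collagens, 3 were higher on both arrays (42.9%, against 21.6% of all gene rows), and these were the genes of type IX collagen. Type IX is a fibril-associated collagen of 3 different chains that coats the type II fibres of cartilage. Col9a1 was at 0.07 and 0.31, a mean of 0.19 ± 0.17 (SD, n = 2). Col9a2 was at 0.15 and 0.20, a mean of 0.17 ± 0.03. Col9a3 was at 0.30 and 1.05, a mean of 0.67 ± 0.53 and the highest of the 40 with array 2 turned. As deposited its mean was -0.37, and the highest was that of Col22a1 at 0.84. On array 2 its ratio was 2.06-fold, and the other type IX genes stayed within 1.5-fold there.

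The type II gene Col2a1, the main fibre of cartilage, was at 0.57 on array 1 and -0.15 on array 2. Col10a1, a marker of hypertrophic cartilage, lay at -0.01 and 0.01. Type XI collagen, which nucleates the type II fibres, was represented by Col11a1 at -0.17 and -0.03 and Col11a2 at -0.69 and 0.18. The class medians were 0.07 and 0.18. Other cartilage genes did not follow one direction: of 16 measured, 5 were higher and 3 lower on both arrays (medians -0.08 and 0.06). These shares were 31.2% and 18.8%, against 21.6% and 19.5% of all gene rows. The matrix protein gene Comp was at 0.75 and 0.96, Hapln1, which links hyaluronan to aggrecan, at -0.78 and -0.13, and Ucma at 0.00 and 0.72. Snorc, listed under the older symbol 3110079O15Rik, was at -0.39 and -0.45. The part of cartilage RNA in the type IX values was not tested.

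**Figure D2:**
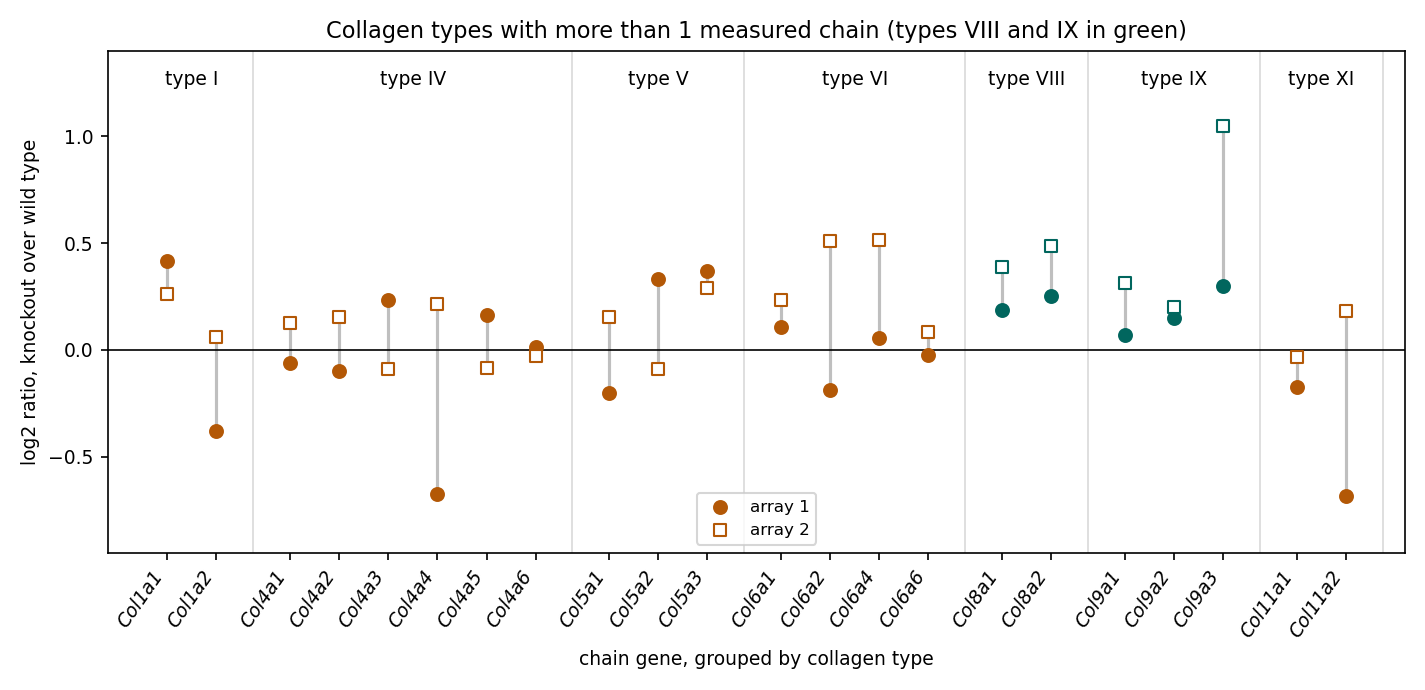
Log2 ratios of knockout over wild type for the chain genes of the 7 collagen types with more than 1 measured chain, with array 1 as filled circles and array 2 as open squares, joined by a line per gene. All chains of types VIII and IX, in green, lie above 0 on both arrays, with Col9a3 highest at 1.05 on array 2.

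The 40 genes belong to 25 collagen types, and 7 types had more than 1 measured chain. In 2 of these 7, types VIII and IX, all measured chains were higher on both arrays, and in 0 were all lower. Taken singly, 35.0% of the collagen genes and 21.6% of all gene rows were higher on both arrays. Whether chains of a type shared a sign more often than other genes was not tested. Type VIII is a short collagen that forms hexagonal networks in the cornea and in vessel walls. Col8a1 was at 0.19 and 0.39, a mean of 0.29 ± 0.14 (SD, n = 2). Col8a2 was at 0.25 and 0.49, a mean of 0.37 ± 0.17. The chains of type VIII differed by 0.07 on array 1 and by 0.10 on array 2, the smallest span of any multi-chain type on both arrays. A span tends to widen with more chains, and only types I and XI also had 2 measured chains. Type I spanned 0.79 and 0.20, and type XI 0.51 and 0.21. With array 2 left as deposited, all measured genes of types VIII and IX had negative means, from -0.02 for Col9a2 to -0.37 for Col9a3.

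The 250 bases before the annotated start are shown for 4 of the 5 genes of types VIII and IX, because their chain genes shared a sign on both arrays, and they are RefSeq sequences read from the gene's strand. No window is shown for Col9a3. Capitals mark CCAAT or its reverse complement ATTGG, the letters GGGCGG or CCGCCC, the letters TATAAA or TTTATA, and the letters AACAAT or ATTGTT.
Col8a1 (GRCm38.p6, chr16:57754738-57754987, minus strand): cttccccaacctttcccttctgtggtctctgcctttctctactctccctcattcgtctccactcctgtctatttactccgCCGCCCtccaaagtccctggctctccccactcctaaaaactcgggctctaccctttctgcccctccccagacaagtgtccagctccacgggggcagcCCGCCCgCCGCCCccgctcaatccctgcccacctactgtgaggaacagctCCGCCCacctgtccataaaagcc
Col8a2 (GRCm38.p6, chr4:126286544-126286793, plus strand): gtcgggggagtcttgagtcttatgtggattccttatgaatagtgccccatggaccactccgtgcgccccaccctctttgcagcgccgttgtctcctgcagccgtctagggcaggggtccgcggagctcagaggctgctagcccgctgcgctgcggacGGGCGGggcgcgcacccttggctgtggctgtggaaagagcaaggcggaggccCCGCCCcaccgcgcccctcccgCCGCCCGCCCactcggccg
Col9a1 (GRCm38.p6, chr1:24177360-24177609, plus strand): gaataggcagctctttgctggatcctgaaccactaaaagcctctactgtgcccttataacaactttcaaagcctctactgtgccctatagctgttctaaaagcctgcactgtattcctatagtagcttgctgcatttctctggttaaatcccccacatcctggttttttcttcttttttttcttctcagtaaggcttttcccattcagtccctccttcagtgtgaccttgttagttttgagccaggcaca
Col9a2 (GRCm38.p6, chr4:121039316-121039565, plus strand): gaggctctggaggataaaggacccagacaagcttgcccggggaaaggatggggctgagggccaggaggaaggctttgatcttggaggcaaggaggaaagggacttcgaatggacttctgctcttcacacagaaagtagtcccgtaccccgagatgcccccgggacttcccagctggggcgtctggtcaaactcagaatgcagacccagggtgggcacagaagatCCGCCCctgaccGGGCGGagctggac

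Both type VIII genes, which lie on different chromosomes, held 4 copies of GGGCGG in this window, the letters of a GC box, and in Col8a2 the last copies overlap by 2 bases. Col9a2 held 2 copies and Col9a1 held 0 of any of these motifs. The GC content was 60.8% for Col8a1, 70.0% for Col8a2, 60.4% for Col9a2 and 43.6% for Col9a1, which had 0 CpG dinucleotides. Windows of 32 of the 40 genes were in the table, and where a gene had more than 1 start the first listed was used. GGGCGG stood in 59.4% of these 32 windows, against 32.9% of all 27025 gene windows of this length. CCAAT stood in 34.4% against 34.5%, TATAAA in 15.6% against 13.0%, and AACAAT, a core recognised by SOX proteins, in 3.12% against 9.65%. The median GC content was 60.0% for the collagen genes and 52.0% for all windows. These matches describe letters in a window and say nothing of binding.

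Among the transmembrane collagens, which span the cell membrane with a collagenous part outside, Col13a1 and Col23a1 were higher on both arrays and Col17a1 was lower. Col13a1, known from the neuromuscular junction, was at 0.41 and 0.65, a mean of 0.53 ± 0.17 (SD, n = 2). Its limma 95% interval ran from 0.03 to 1.02 (unadjusted p = 0.0424), and its mean stood at the percentile 97.2 of all gene rows. Col23a1 was at 0.38 and 0.55, a mean of 0.47 ± 0.12, with an interval from -0.01 to 0.94. Col17a1, the hemidesmosome collagen that anchors epithelium, was at -0.37 and -0.47, a mean of -0.42 ± 0.07. Both arrays put it below 0 by similar amounts. Of the 40 collagen genes, 0 passed 1.5-fold (a log2 size of 0.585) with 1 sign on both arrays, against 0.359% of all gene rows higher and 0.453% lower. Col13a1 came nearest, with 1.33-fold on its weaker array, followed by Col23a1 with 1.30-fold and Col17a1 with 1.29-fold.

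Type VI collagen forms beaded filaments around cells in most connective tissues. Its genes were Col6a1 at 0.11 and 0.23, Col6a2 at -0.19 and 0.51, Col6a4 at 0.05 and 0.52, and Col6a6 at -0.02 and 0.09. All were above 0 on array 2, and array 1 split them. Col6a1 and Col6a2 are neighbours in the annotation and their means were 0.17 and 0.16. Col6a3 had no row. Col6a5 had a row only under the older symbol Gm7455, at -0.23 and 0.24, and Col26a1 only under Emid2, at 0.31 and 0.14, and neither is counted among the 40.

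The fibril-associated collagens outside cartilage ranged widely. Col12a1, which coats type I fibres under load, was at 0.30 and 0.32, a mean of 0.31 ± 0.01 (SD, n = 2). Col14a1 was at -0.11 and 0.14, Col16a1 at -0.17 and 0.00, Col19a1 at -0.43 and 0.34 and Col20a1 at -0.24 and 0.15. Those 4 were below 0 on array 1 and above it on array 2. Col22a1, a collagen of tissue junctions such as that of muscle and tendon, was at 0.77 on array 1 and -0.91 on array 2. In the deposited columns, before array 2 was turned, it had the same sign on both arrays, with a mean of 0.84. It was the 1 collagen gene past 1.5-fold with 1 sign on both arrays when array 2 was left as deposited, against 2.03% of all gene rows higher and 1.15% lower. Col28a1 lay at 0.01 and 0.03. In the class of 16 other collagens, 8 were higher and 1 lower on both arrays (medians 0.03 and 0.27). The other 7 had opposite signs. Over all gene rows, 21.6% were higher and 19.5% lower on both arrays.

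**Figure D3:**
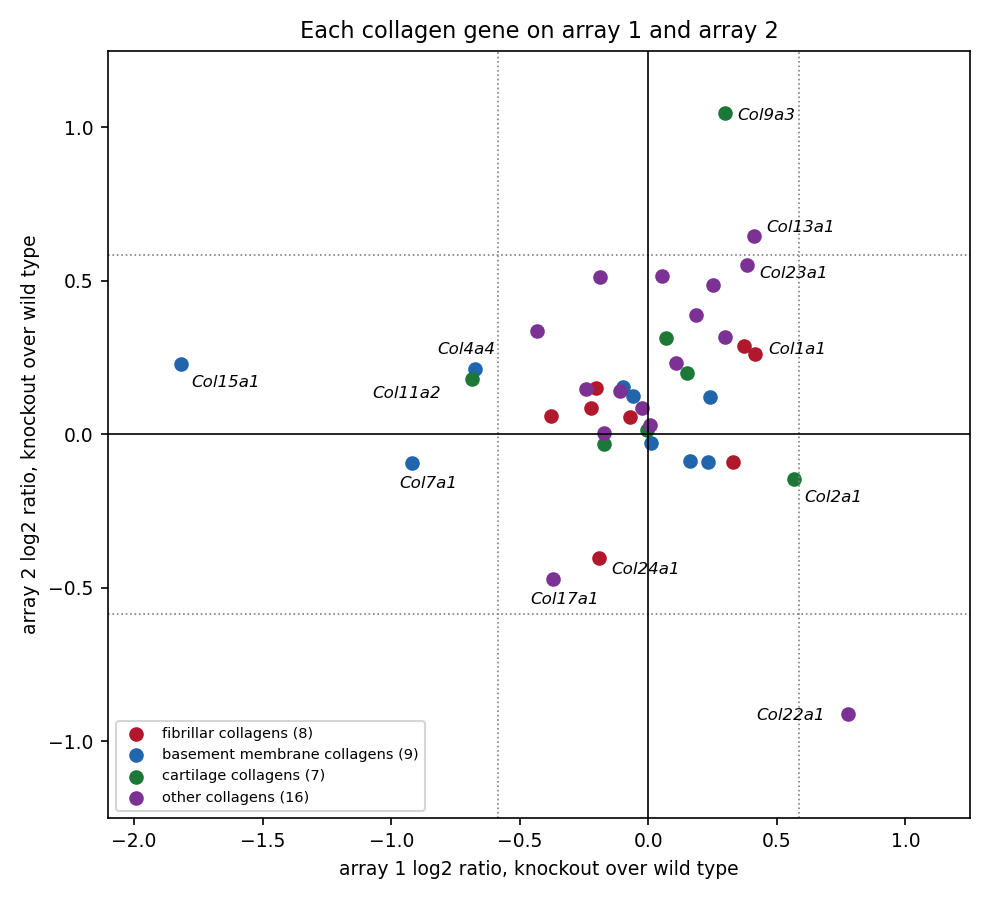
Log2 ratios of knockout over wild type of the 40 collagen chain genes on array 1 (horizontal) and array 2 (vertical), coloured by class, with dotted lines at 1.5-fold. No gene lies past both lines in the same direction, Col15a1 stands apart on array 1 at -1.82, and Col22a1 has opposite signs, at 0.77 and -0.91.

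At least 1 array put 7 of the 40 genes past 1.5-fold, against 19.0% of all gene rows. Array 1 did so for 5 genes (Col4a4, Col7a1, Col11a2, Col15a1 and Col22a1), against 13.8% of all gene rows. On array 2 there were 3 (Col9a3, Col13a1 and Col22a1), against 9.19%. Of the 5 genes on array 1, 4 were lower, and of these only Col7a1 was also below 0 on array 2.

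The 40 genes lie on 14 chromosomes, and 6 pairs are next to each other among the protein-coding genes of the annotation. Beside the type IV and type VI pairs, Col3a1 neighbours Col5a2 and Col9a1 neighbours Col19a1. Array 1 separated Col9a1 (0.07) from Col19a1 (-0.43), while on array 2 they were at 0.31 and 0.34. The mean ratios of a pair differed by between 0.00 for Col4a1 and Col4a2 and 0.30 for Col4a3 and Col4a4.

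Of 23 measured genes that fold and export collagen, 8 were lower (34.8%, against 19.5% of all gene rows) and 5 higher (21.7%, against 21.6%) on both arrays, and the medians were -0.08 and 0.00. P4ha2, a prolyl hydroxylase that stabilises the helix, was at -0.47 and -0.24. Plod2, a lysyl hydroxylase that prepares crosslinks, was at -0.46 and -0.07, and Serpinh1, the collagen chaperone HSP47, at -0.42 and -0.06. Tram2, which takes part in type I synthesis at the endoplasmic reticulum, was at -0.02 and -0.54. Of 15 genes that trim or crosslink secreted procollagen, 4 were lower (26.7%) and 2 higher (13.3%) on both arrays (medians -0.13 and 0.03). Among them Adamts14, a propeptide protease, was at 0.15 and 0.38, Loxl4, a lysyl oxidase, at -0.13 and -0.31, Pcolce2 at -0.42 and -0.02, and Pxdn, which crosslinks type IV, at 0.00 and -0.35. None passed limma's adjusted threshold (adjusted p = 0.999995 for each gene named), and the difference between these lists and the chain genes was not tested.

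Of 10 collagen receptors, 3 were lower (30.0%, against 19.5% of all gene rows) and 1 higher (10.0%, against 21.6%) on both arrays. Itga1 and Itga2, integrin subunits that bind collagen, pointed in opposite directions, at -0.46 and -0.22 and at 0.29 and 0.40. Itga10, a subunit of chondrocytes, was at -0.39 and -0.02. Itgb1, the partner of all of these subunits, was at -0.16 and -0.14. Of 19 proteins that bind collagen in the matrix, 7 were higher (36.8%) and 1 lower (5.26%) on both arrays (medians 0.11 and 0.07). Fn1, fibronectin, was at 0.51 and 0.63, Fbln1 at 0.26 and 0.33, Omd at 0.22 and 0.35, and the proteoglycan gene Bgn at -0.41 and -0.28. Of 17 laminins and other partners in the basement membrane, 8 were higher (47.1%) and 2 lower (11.8%) on both arrays (medians 0.15 and 0.05). Smoc1 was at 0.20 and 0.66, Smoc2 at 0.12 and 0.37, Lamc1, a chain of most laminins, at 0.17 and 0.24, and Hspg2, perlecan, at -0.43 and -0.02.

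Of 14 collagenases, related proteases and inhibitors, 9 were higher on both arrays and 0 lower (medians 0.14 and 0.11). These shares were 64.3% and 0.0%, against 21.6% and 19.5% of all gene rows. Mmp8, the collagenase stored in neutrophils, was at 2.77 and 0.47, and Mmp9, a gelatinase also abundant in neutrophils, at 2.32 and 0.07. Mmp1a was at 0.06 and 1.28 and Mmp2 at 0.32 and 0.14. Beside Mmp8 and Mmp9, 6 of 8 neutrophil marker genes (75.0%) were higher on both arrays (medians 3.56 and 0.30). S100a8 was at 5.54 and 0.45, S100a9 at 4.36 and 0.73, Ltf at 4.23 and 1.32 and Ngp at 3.29 and 0.65. Among the others, of which 3 were named after their values were seen, Mpo was at 3.50 and -0.45, Lcn2 at 0.19 and 0.16, and Elane, the 1 gene lower on both, at -0.09 and -0.15. The part of neutrophil RNA in the protease values was not tested.

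**Figure D4:**
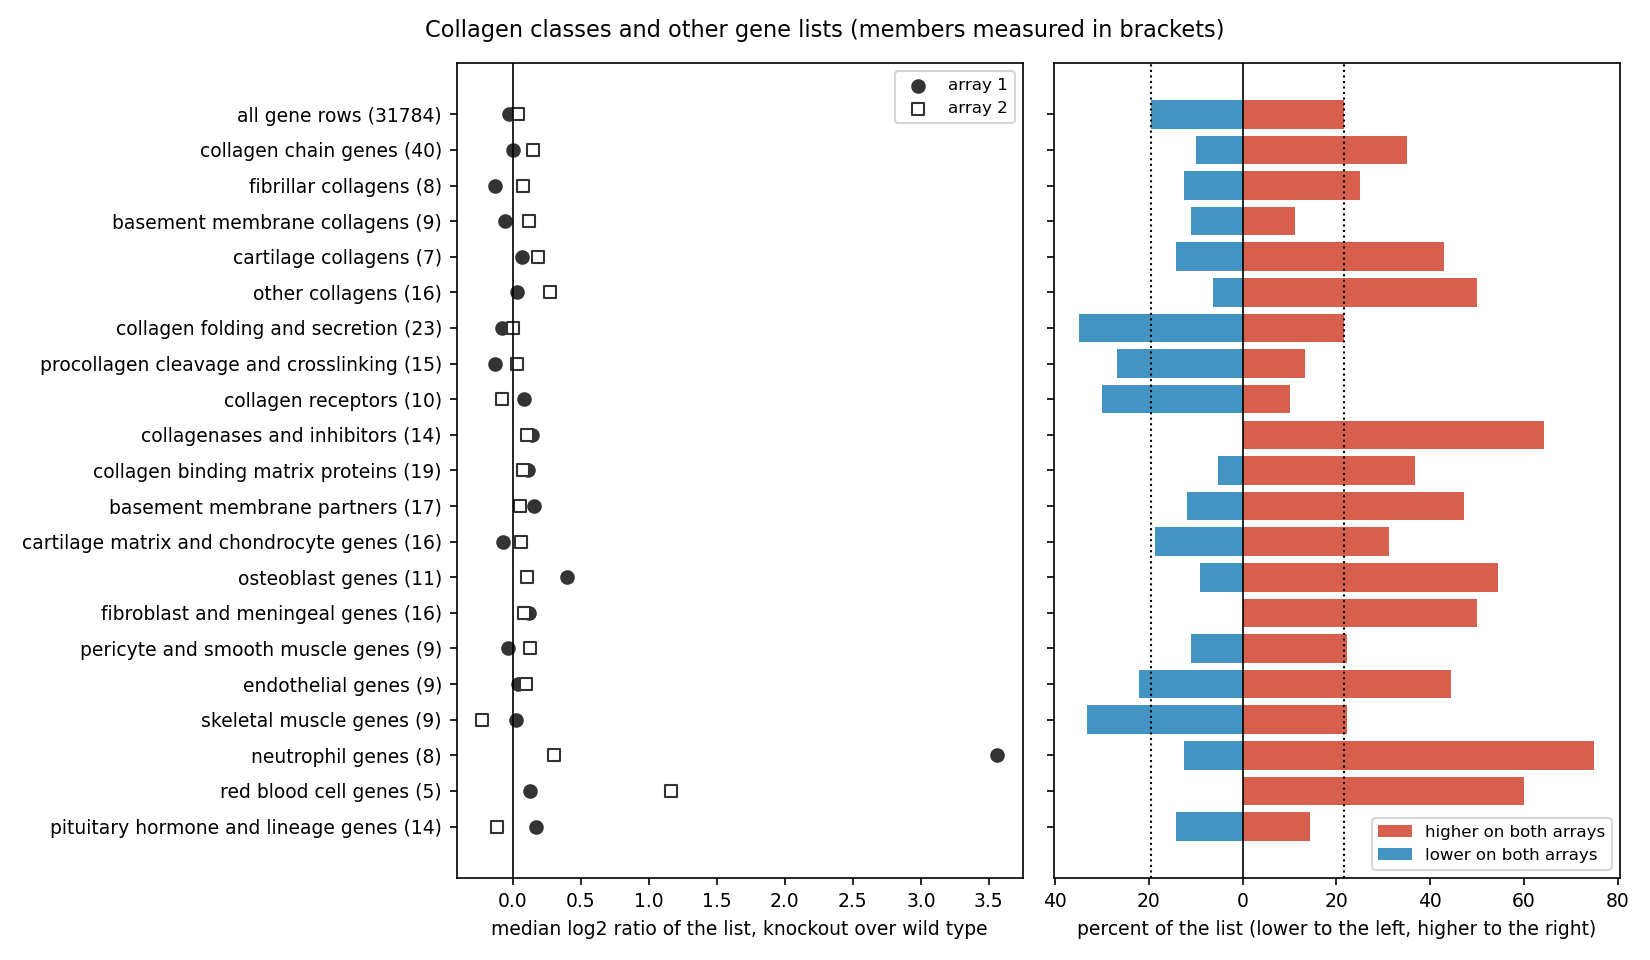
Left, the median log2 ratio of knockout over wild type on array 1 (filled circles) and array 2 (open squares) for the collagen classes and other gene lists. Right, the percent of each list higher (to the right) or lower (to the left) on both arrays, with dotted lines at the 21.6% and 19.5% of all gene rows, where the collagen chain genes stand at 35.0% and 10.0%.

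Markers of the cells that make collagen were set beside the chain genes. Of 16 fibroblast and meningeal genes, 8 were higher and 0 lower on both arrays, against 21.6% and 19.5% of all gene rows. The list medians were 0.12 and 0.08. The higher genes included Ptgds at 0.08 and 1.09, Pi16 at 0.11 and 0.49, Aldh1a2 at 0.44 and 0.09 and Foxd1 at 0.25 and 0.26. The other 8 had opposite signs. They included Dcn at -0.04 and 0.18, Lum at 0.54 and -0.01 and Pdgfrb at 0.12 and -0.26, named after their values were seen. Osteoblast genes were higher on both arrays in 6 of 11 (54.5%) and lower in 1 (9.09%), with medians of 0.40 and 0.10. The osteocalcin genes Bglap2 and Bglap were at 1.56 and 1.14 and at 1.21 and 0.22, Alpl, a phosphatase of mineralising cells, at 0.76 and 0.87, and Phex at 1.11 and 0.00. The 1 lower gene was Runx2, the transcription factor that commits cells to the osteoblast lineage, at -0.62 and -0.47, while Sp7, which acts after it, was at 0.95 and -0.96 and Ibsp at 0.34 and -0.47. These 3 were named after their values were seen. Of 9 pericyte and smooth muscle genes, 2 were higher (22.2%) and 1 lower (11.1%) on both arrays. Myh11 was at 0.00 and 0.59, Abcc9 at -0.23 and -0.36 and Cspg4 at 0.03 and 0.24. Of 9 endothelial genes, 4 were higher (44.4%) and 2 lower (22.2%) on both arrays. Cldn5 was at 0.30 and 0.27, Egfl7 at 0.39 and 0.05, Pecam1 at -0.07 and -0.22 and Kdr at -0.11 and -0.14.

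Skeletal muscle genes were higher on both arrays in 2 of 9 (22.2%) and lower in 3 (33.3%), against 21.6% and 19.5% of all gene rows. They included Ckm at -0.95 and -1.43, Myh2 at -0.77 and -0.23, Myh4 at 0.30 and 0.26 and Acta1 at 0.02 and 0.04. Red blood cell genes were higher on both arrays in 3 of 5 (60.0%), with Hba-a2 at 0.73 and 1.15, Hbb-b2 at 0.19 and 1.13 and Hbb-b1 at 0.12 and 1.16. Of 14 pituitary hormone and lineage genes, 2 were higher and 2 lower on both arrays (14.3% each). Pomc was at -0.63 and -0.96, Fshb at 0.29 and 0.52 and Tbx19 at 0.39 and 0.30. The part of stroma, bone, muscle or blood in the collagen values was not tested.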

How the data were processed

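Pituitary RNA was amplified and labelled with Cy3 or Cy5 by Agilent's low-input kit for 2 colours, per the labels' protocols. The sources used here do not state the scanner, background correction, normalization or genome build. Values were deposited as signed linear fold changes, a score with 1 row per gene name: every value lies at or above 1 or at or below -1. The log2 of each size was taken and the sign kept, and array 2 was turned because the labels exchange the dyes. Agilent control features (56 rows) were left out, which left 31784 gene rows. How probes were combined is unknown, as are signal over background and the authors' centring. The number of arrays also limits the precision.

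An intercept was fitted to both arrays over all gene rows with limma's lmFit and eBayes (version 3.58.1, R 4.3.3), which leaves 1 residual degree of freedom, and p-values were adjusted by Benjamini-Hochberg. With 2 arrays the smallest two-sided p of a sign-flip permutation is 0.5. The procedure was tested on simulated data. Alternatives were the orientation of array 2, centring, scaling, single arrays, other fold thresholds, the ordinary statistic and a fit on protein-coding rows.

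All collagen rows could be named. In each other list up to 4 genes with the largest mean ratio in size were named among those with the same sign on both arrays. Further genes are marked as named after their values were seen. The members and lists were chosen with earlier results of these data known. Genes were matched to lists by current or older RefSeq symbols of GRCm38.p6. 1 gene that the naming rule takes is not reported here.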

Additional observations from a re-analysis of the deposited data

Results flagged for a closer look

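Agilent's E1A spike-in RNAs, which enter no comparison above, had a mean log2 size of 1.58 over both arrays, against 0.0675 for the 1 negative control row. Their signs are the basis for reading both deposited columns in the same dye order.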

How the results depend on the processing

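With array 2 as deposited, 21 of the 40 mean ratios reversed and 19 kept their sign: Col4a1 at -0.092, Col4a2 at -0.13, Col4a6 at 0.020, Col6a1 at -0.063, Col6a2 at -0.35, Col6a4 at -0.23, Col6a6 at -0.055, Col8a1 at -0.10, Col8a2 at -0.12, Col9a1 at -0.12, Col9a2 at -0.024, Col9a3 at -0.37, Col10a1 at -0.0092, Col12a1 at -0.0096, Col13a1 at -0.12, Col14a1 at -0.13, Col17a1 at 0.051, Col22a1 at 0.84, Col23a1 at -0.083, Col24a1 at 0.10 and Col28a1 at -0.013. In that orientation 6 genes were higher and 16 lower on both arrays, and 1, Col22a1, passed 1.5-fold on both. The median mean ratio was -0.086 over all 40 genes, -0.070 for cartilage, -0.095 for other and -0.092 for basement membrane collagens, the last a move within the SD between the arrays. These follow from the turned sign itself. Centring and scaling reversed 0 of the 40 means, moved no count by over 1.5 times and moved no class median by more than the SD between the arrays.

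The count past the adjusted threshold was 0 in the orientations, centring, scaling, the ordinary statistic and the protein-coding fit, and became 1 at an unadjusted p with limma (Col13a1) and 1 with the ordinary statistic, an alternative added after the data were seen (Col12a1). At 1.2-fold 6 genes passed in the same direction on both arrays, and at 2-fold 0. The share of all gene rows at these thresholds was not counted, so the 6 cannot be judged against it. On single arrays, where no second array has to agree, 3 to 5 genes passed 1.5-fold, against 9.19% to 13.8% of all gene rows. There 20 to 30 were higher, against 44.9% to 57.1% of all gene rows, and 10 to 20 lower. Class medians ranged over single arrays from -0.00029 to 0.14 for all 40 genes, 0.068 to 0.18 for cartilage and 0.030 to 0.27 for other collagens. The sign of 22 genes differed between the arrays.

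The main fit was itself paired, because every ratio already sets a knockout pool against a wild-type pool. A further block or dye term would leave no residual degrees of freedom. A leave-one-out p could not be computed for the same reason. Signal over background is unknown, so dim probes could not be set apart.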
